A study of Mus musculus with 2 samples.

Results

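The genes described here encode carriers that move amino acids and monocarboxylates (lactate, pyruvate, ketone bodies and related acids) across cell membranes. They are the measured members of the solute carrier families Slc1, Slc3, Slc6, Slc7, Slc16, Slc36, Slc38 and Slc43, chosen by gene symbol, without Slc6a13, Slc6a20a, Slc7a11 and Slc16a3, and with at least 50 unique molecular identifiers (UMIs, each standing for 1 captured RNA molecule) over both matrices. Of 26033 genes in the files, 74 symbols matched and 58 reached the minimum. By family these were 6 of 7 matched symbols of Slc1, 2 of 2 of Slc3, 11 of 19 of Slc6, 12 of 15 of Slc7, 12 of 13 of Slc16, 3 of 4 of Slc36, 9 of 11 of Slc38 and 3 of 3 of Slc43. Just inside the minimum were Slc1a6 with 54 UMIs, Slc7a3 with 63 and Slc6a19 with 65. Just outside were Slc38a4 with 35 UMIs, Slc7a13 with 18 and Slc6a7 with 14. Slc7a6os matched by its name, but it is the gene on the strand opposite to Slc7a6 and is not a transporter gene.

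The study profiled sorted cells of whole mouse brain by droplet single-cell RNA sequencing, in 1 control library and 1 mutant library. Control mice were Csf1rfl/fl, with loxP sites in both copies of Csf1r, which encodes the receptor that macrophages need for survival. Mutant mice were Mrc1Cre:Csf1rfl/fl, in which Cre made from the Mrc1 gene acts on those sites, so both groups carry the floxed alleles and only the mutant carries Cre. Mrc1, the mannose receptor gene, marks macrophages at the borders of the brain, known as border-associated macrophages (BAMs), and Cre acts in any cell that makes it. None of the sources used here gives age, sex or the number of animals per library. By its title, the study asks what perivascular macrophages that need interleukin-34, a ligand of that receptor, do for brain vessels.

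Brain capillaries are sealed by tight junctions, so amino acids, lactate and thyroid hormones enter largely through carriers in the endothelial membrane. Astrocytes clear glutamate, GABA and glycine after release by neurons and hand glutamine back, and carriers of the Slc1, Slc6 and Slc38 families do this work. Some Slc7 carriers work as pairs with a glycoprotein encoded by Slc3a2 or Slc3a1, and several Slc16 carriers (the monocarboxylate transporters, MCTs) need a chaperone encoded by Bsg or Emb to reach the membrane.

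The control matrix held 85716531 UMIs and the mutant matrix 82806348, with medians of 7998 and 8236 UMIs per barcode. After filters 5617 control and 6115 mutant cells remained, and 5159 and 5438 were given a class from marker genes that are not among the transporters. Classes rest on RNA alone and are populations with the markers of a cell type, which are called below by the name of that type. Compared were microglia (3413 control and 3674 mutant cells), BAMs (254 and 98), endothelial cells (117 and 150), astrocytes (589 and 209) and choroid plexus epithelium (609 and 1040). Astrocytes were split into telencephalic (127 and 35), non-telencephalic (266 and 98) and Bergmann-type cells (26 and 23), the last with markers of cerebellar Bergmann glia. The remaining astrocytes were given no type but stayed in the values for all astrocytes. Ependymal cells (43 and 89) and fibroblasts (41 and 84) were too few for counts between genotypes and served for levels only. Their own 10 markers summed to 21500 CPM in control and 21375 CPM in mutant endothelial cells, 22766 and 20767 CPM in microglia and 17739 and 16504 CPM in BAMs, with every marker detected. Both libraries shared 17 cell barcodes. Levels are in CPM: a gene's UMIs were divided by all UMIs of the class and multiplied by 1000000, with exact Poisson 95% intervals. There was 1 library per genotype, so no test between genotypes exists, and every interval covers counting error alone and leaves out variation from mouse to mouse. Each molecule is counted once at its 3′ end, so CPM were not divided by gene length, and the order of different genes is approximate.

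Most transporter genes had 1 class of highest expression that was the same in both libraries. This held for 43 of the 58: 9 were highest in endothelial cells, 8 in fibroblasts, 7 in microglia, 5 in BAMs, 4 in non-telencephalic astrocytes, 3 in telencephalic astrocytes, 3 in choroid plexus epithelium, 2 in Bergmann-type cells and 2 in ependymal cells. For the other 15, the first rank went to different classes in the 2 libraries. The summed level of all 58 genes was highest in the astrocyte types, with 16371 CPM in control and 16250 CPM in mutant telencephalic astrocytes and 12426 and 12033 CPM in non-telencephalic ones. Endothelial cells had 5992 and 7182 CPM, fibroblasts 5755 and 5815 CPM, microglia 2505 and 2412 CPM and BAMs 2103 and 1907 CPM. Choroid plexus epithelium had the lowest sum of the 9 ranked classes, at 1121 and 1127 CPM. This is a share of the class's UMIs and not a count per cell. Ttr, a marker gene of that class, alone had 301461 and 291545 CPM there, which lowers the CPM of every other gene. Its cells also had medians of 17082 and 14785 UMIs, against 8292 and 8130.5 in microglia.

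**Figure D1:**
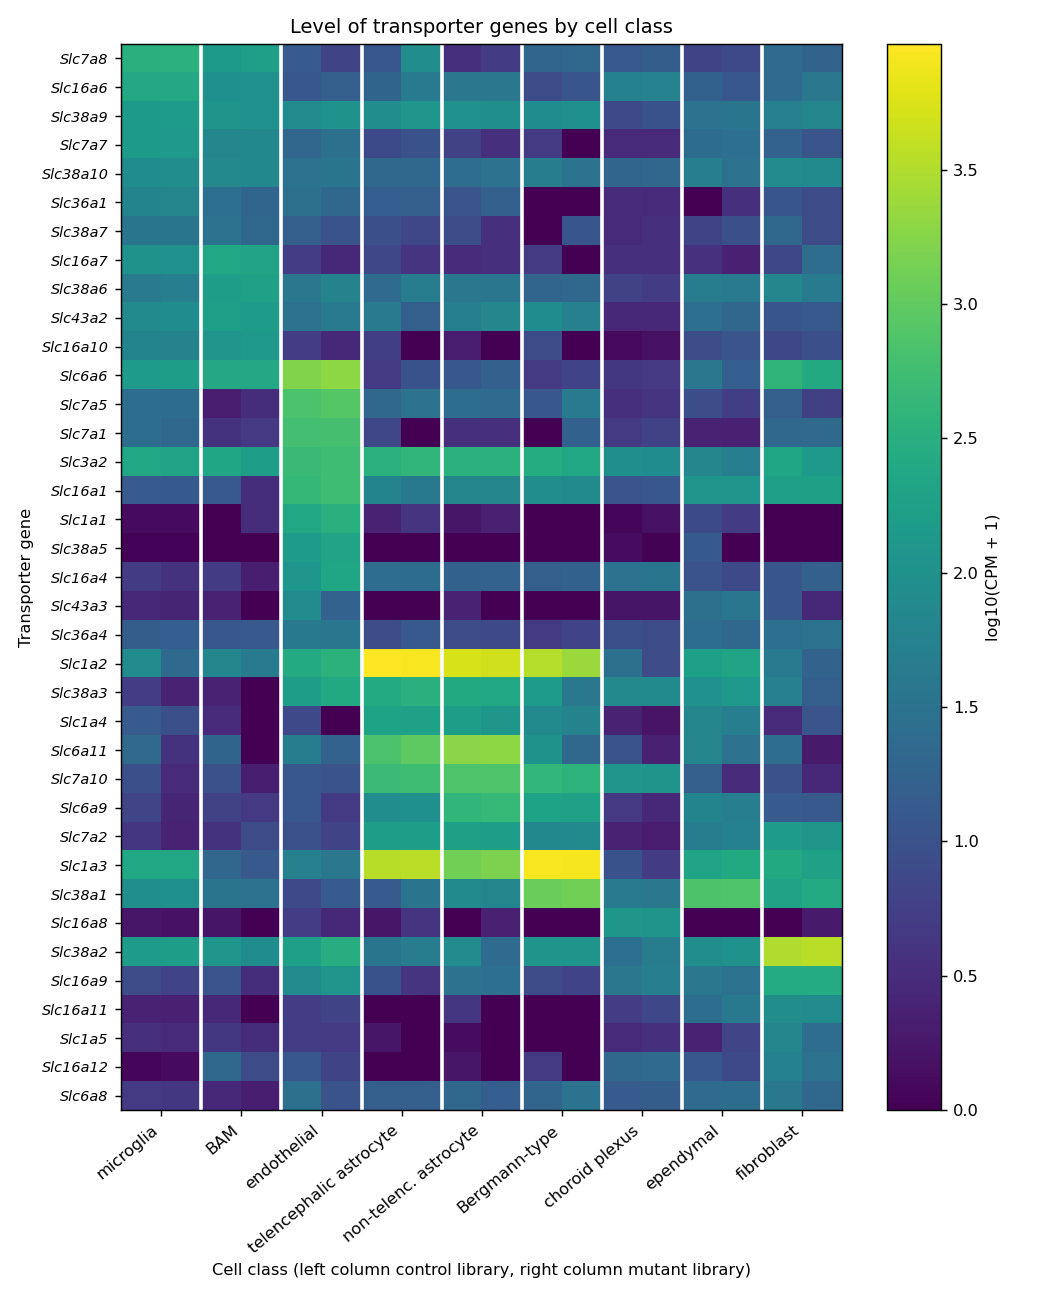
Level of 37 transporter genes that reached 20 CPM, averaged over the libraries, in at least 1 class. Rows are genes grouped by their highest class, columns are 9 cell classes with the control library on the left and the mutant library on the right of each pair, and color is log10(CPM + 1). Slc1a2 in telencephalic astrocytes is the brightest entry in both libraries, and most genes look alike in the columns of a pair.

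Endothelial cells were the site of highest expression for the carriers known from the blood-brain barrier. Slc6a6, the taurine transporter gene, led with 1645 CPM in control (95% interval 1530 to 1766) and 1970 CPM in mutant cells (1853 to 2092). The next highest class, fibroblasts, had 389 and 261 CPM. Slc7a5, which encodes the large neutral amino acid transporter LAT1, had 704 and 829 CPM, and no other ranked class passed 42.5 CPM in either library. Slc7a1, the gene of a cationic amino acid carrier that brings in arginine and lysine, had 613 and 636 CPM against at most 26.3 and 22.2 CPM elsewhere. Both genes were thus at least an order of magnitude above every other ranked class.

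Slc3a2, the partner glycoprotein of LAT1, was spread more widely than LAT1 itself. It had 488 and 546 CPM in endothelial cells, 340 and 411 CPM in telencephalic astrocytes, 226 and 207 CPM in microglia and 92.1 and 85.3 CPM in choroid plexus epithelium. The alternative partner Slc3a1 stayed low, at 2.21 CPM or less in every ranked class of the control library and 3.00 CPM or less in the mutant. Slc16a1, the gene of MCT1, which carries lactate and ketone bodies, had 445 CPM in control and 546 CPM in mutant endothelial cells. Its chaperone gene Bsg had 9932 and 11884 CPM there, far above the 3833 and 3248 CPM of choroid plexus epithelium. Emb, the other chaperone gene, was at 0 of 463257 UMIs in control endothelial cells and 24.1 CPM in mutant ones, against 520 and 602 CPM in fibroblasts and 281 and 286 CPM in choroid plexus epithelium.

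Other endothelial genes covered glutamate and glutamine. Slc1a1, a glutamate carrier gene, had 242 and 324 CPM and no more than 6.77 CPM in any other ranked class. Slc38a5, a glutamine carrier gene, had 153 and 204 CPM, and the next class had 12.2 CPM in control and 0.0918 CPM in mutant. Slc38a3, another glutamine carrier gene, was shared between endothelium, with 166 and 257 CPM, and astrocytes, with 262 and 327 CPM in the telencephalic type.

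Within the endothelium most of these genes were lower in cells with a Plvap UMI. Plvap encodes the diaphragm protein of fenestrated, leaky capillaries such as those of the choroid plexus, and barrier capillaries lack it. A Plvap UMI was found in 18 of 117 control endothelial cells (15.4%) and in 8 of 150 mutant ones (5.33%). Of 14 transporter genes with at least 50 UMIs in endothelial cells, 11 were at least 1.5-fold lower in control cells with a Plvap UMI, with an interval that excluded 1, and 0 were higher. Over all 4103 genes measured in these cells, 13.3% were lower and 10.9% higher by that rule. All 14 had a ratio below 1. The minimum was taken over all endothelial cells, and those without a Plvap UMI held most of the UMIs. They had 359442 UMIs in control and 508464 in mutant, against 103815 and 32169 in cells with a Plvap UMI. Genes high only in Plvap cells thus reached the minimum less easily, and these counts depend in part on it.

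The size of the difference varied among members. In the control library Slc38a5 had 9.63 CPM in cells with a Plvap UMI and 195 CPM in cells without (ratio 0.0495, 0.00124 to 0.285). Slc38a3 had 19.3 and 209 CPM (ratio 0.0923), Slc1a1 28.9 and 303 CPM (0.0953) and Slc7a1 96.3 and 762 CPM (0.126). Slc16a4, an MCT gene with no settled substrate, had 38.5 and 145 CPM, and Slc16a1 had 145 and 531 CPM. Smaller steps were seen for Slc7a5, with 356 and 804 CPM (ratio 0.443, 0.306 to 0.626), and Slc6a6, with 780 and 1895 CPM (0.412, 0.323 to 0.519). Slc3a2 did not pass the rule, at 376 CPM with and 520 CPM without a Plvap UMI (ratio 0.722, 0.498 to 1.02).

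The mutant library, with only 8 such cells and 32169 UMIs in them, had the same order of groups for these genes. Slc7a1, Slc16a1, Slc38a3 and Slc38a5 had 0 UMIs in its Plvap cells, where 3 counts would be 93.3 CPM and the exact interval reaches 115 CPM for each, while its cells without a Plvap UMI had 677, 580, 273 and 216 CPM. Slc7a5 had 31.1 CPM with and 879 CPM without a Plvap UMI. Slc6a6 had 715 and 2049 CPM.

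Slc43a3, which encodes a nucleobase carrier, ran the other way. It had 36 UMIs (347 CPM) in the 18 control cells with a Plvap UMI and 2 UMIs (5.56 CPM) in the 99 without. In the mutant all 9 of its endothelial UMIs lay in the 8 Plvap cells (280 CPM). With 47 endothelial UMIs it stayed under the minimum of 50 and is not in the counts above. Of the fixed list of 14 other barrier transporters, 12 were measured by the same minimum, with the same limit, and 11 were lower in control cells with a Plvap UMI. Among them were Slc2a1, the glucose carrier gene, with 279 CPM with and 1349 CPM without, and Slco1a4, an organic anion carrier gene, with 434 and 2754 CPM. Slc29a1, a nucleoside carrier gene with 30 endothelial UMIs and so not measured, had 96.3 CPM with and 19.5 CPM without. Bsg had 2707 and 12019 CPM. Summed endothelial markers were level in the control library, at 21259 CPM with and 21570 CPM without a Plvap UMI. Median depth was 5219 UMIs per cell with and 3449 without. Slc1a2, a gene of astrocytes that is counted among the 11, had 135 and 298 CPM while the astrocyte marker sum was 1127 and 804 CPM, and the part of RNA from other cells in its difference was not tested.

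**Figure D2:**
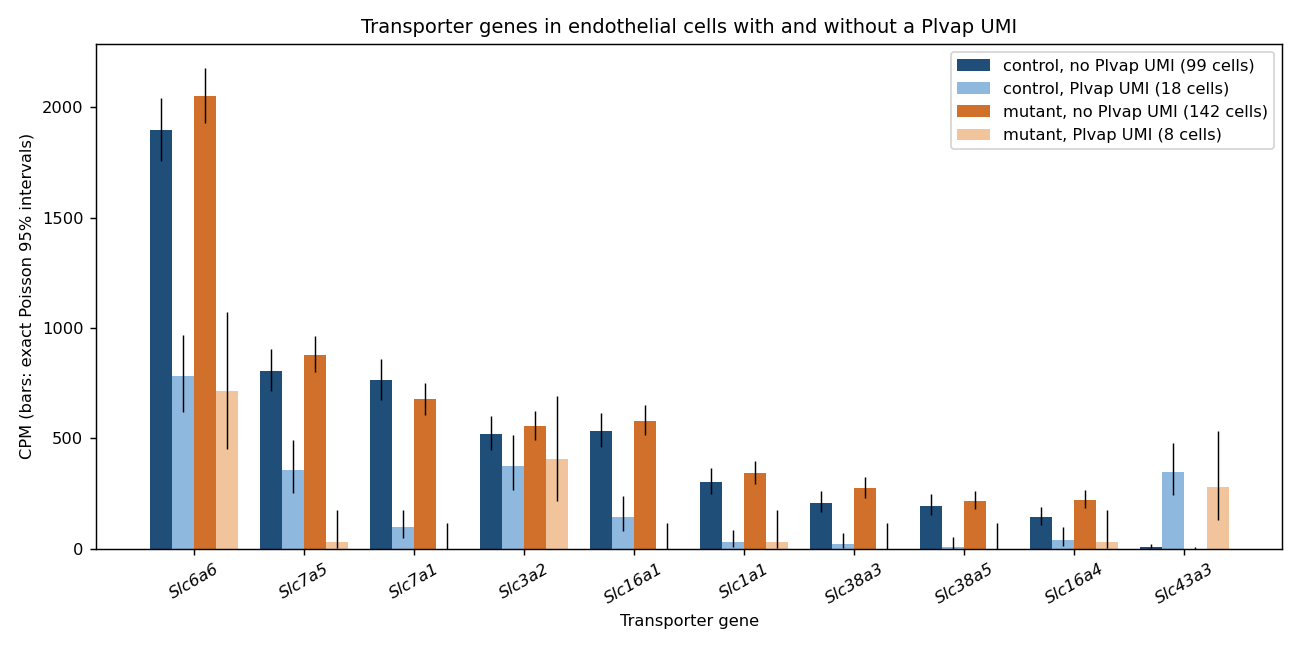
CPM of 10 transporter genes in endothelial cells with and without a Plvap UMI, for the control and mutant libraries, with exact Poisson 95% intervals. Blue bars are control and orange bars mutant, and the paler bar of each color is the cells with a Plvap UMI, which is the lower one for all genes drawn except Slc43a3.

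Promoter sequences are shown for 3 of the genes highest in endothelial cells, which show the outcomes of a motif search: Slc7a1 and Slc38a5, both lower in Plvap cells, and Slc3a2, which did not pass the rule there. They are RefSeq promoters of build GRCm38.p6, from 250 bases before to 50 after a transcript start, and 41 of the 58 genes matched an entry, with 56 promoters. Each was searched on both strands for CTTTGAT, the core bound by TCF/LEF factors of the Wnt pathway, which is known to maintain brain endothelial barrier genes, and for CCGGAA, the core of many ETS factor sites; the 2 motifs do not overlap each other here. Capitals mark a match on either strand.
Slc7a1, chr5:148392766-148393065, minus strand: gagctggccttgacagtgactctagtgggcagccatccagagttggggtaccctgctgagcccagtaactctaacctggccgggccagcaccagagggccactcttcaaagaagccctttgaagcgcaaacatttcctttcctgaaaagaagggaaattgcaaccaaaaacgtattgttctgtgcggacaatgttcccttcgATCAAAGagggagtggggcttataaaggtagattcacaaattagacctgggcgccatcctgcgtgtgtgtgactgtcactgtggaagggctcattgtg
Slc3a2, chr19:8713848-8714147, minus strand: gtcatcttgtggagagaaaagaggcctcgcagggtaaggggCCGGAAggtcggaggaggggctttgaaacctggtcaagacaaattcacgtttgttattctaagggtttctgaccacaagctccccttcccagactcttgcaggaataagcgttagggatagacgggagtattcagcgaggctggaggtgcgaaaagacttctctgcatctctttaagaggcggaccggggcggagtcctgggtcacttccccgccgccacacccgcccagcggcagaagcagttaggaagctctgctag
Slc38a5, chrX:8271131-8271430, plus strand: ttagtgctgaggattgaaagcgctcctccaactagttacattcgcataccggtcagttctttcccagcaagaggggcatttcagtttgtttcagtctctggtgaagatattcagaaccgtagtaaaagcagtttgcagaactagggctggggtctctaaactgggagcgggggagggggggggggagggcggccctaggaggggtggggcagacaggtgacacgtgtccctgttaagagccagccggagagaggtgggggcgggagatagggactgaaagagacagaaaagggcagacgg
The Slc7a1 entry, 1 of 2 for that gene, held 1 TCF/LEF match on the opposite strand, the Slc3a2 entry held 1 ETS match, and the Slc38a5 entry held neither. The other Slc7a1 entry, chr5:148399855-148400154, spans the annotated gene start at 148399904 and held neither motif. The Slc3a2 entry lies inside the annotated gene (8706882 to 8723369, minus strand) and does not span its annotated start at 8723369. Of the 8 promoters of the 7 matched genes highest in endothelial cells, 1 held CTTTGAT and 2 held CCGGAA. Among all 32851 promoters of the same length, 3.73% held CTTTGAT and 14.9% held CCGGAA, and among the 56 promoters of the transporter genes 4 and 10 did. A match is a description of letters in this window and not evidence of binding.

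Between genotypes, endothelial transporter levels leaned upward in the mutant library. A gene was counted when it had at least 50 UMIs over both libraries of a class, a ratio of at least 1.5 or at most its inverse, and an interval that excluded 1. Genes below 10% of their CPM in another ranked class were counted apart, because RNA freed from broken cells reaches all droplets. Of 12 genes in the endothelial rule, 2 were higher in the mutant and 0 lower. Over all 4009 endothelial genes measured, 3.97% were higher and 4.04% lower.

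The higher genes were Slc16a4 and Slc38a3. Slc16a4 (chromosome 3, 107291230 to 107312115) had 121 CPM in control (56 UMIs) and 211 CPM in mutant endothelial cells (114 UMIs), a ratio of 1.74 (1.26 to 2.45). Slc38a3 (chromosome 9, 107650634 to 107669530) had 166 and 257 CPM, a ratio of 1.55 (1.16 to 2.07). All 12 ratios lay above 1, from 1.04 for Slc7a1 to 1.74, with a median log2 ratio of 0.40. The median over all endothelial genes was 0.01, and 51.2% of them had a ratio above 1.

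The share of Plvap cells moved with this lean. In endothelial cells without a Plvap UMI, 11 of the 12 ratios were above 1, with a median ratio of 1.12 in place of 1.32 and a range of 0.89 for Slc7a1 to 1.54 for Slc16a4. In those cells Slc38a3 had 209 CPM in control and 273 CPM in mutant (ratio 1.31, 0.98 to 1.76), which no longer met the rule. It also missed the rule with equal weight per cell (1.22), while 5 genes were higher in cells with at least 1000 genes and at most 5% mitochondrial UMIs. Slc16a4 had 145 and 222 CPM in cells without a Plvap UMI (1.54, 1.10 to 2.18), which met it. Slc38a2, which belongs to the genes counted apart, had a ratio of 1.72 in all endothelial cells, but 1 mutant cell held 44.6% of its UMIs. Astrocyte markers summed to 876 CPM in control and 749 CPM in mutant endothelial cells, and microglial markers to 1079 and 851 CPM.

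**Figure D3:**
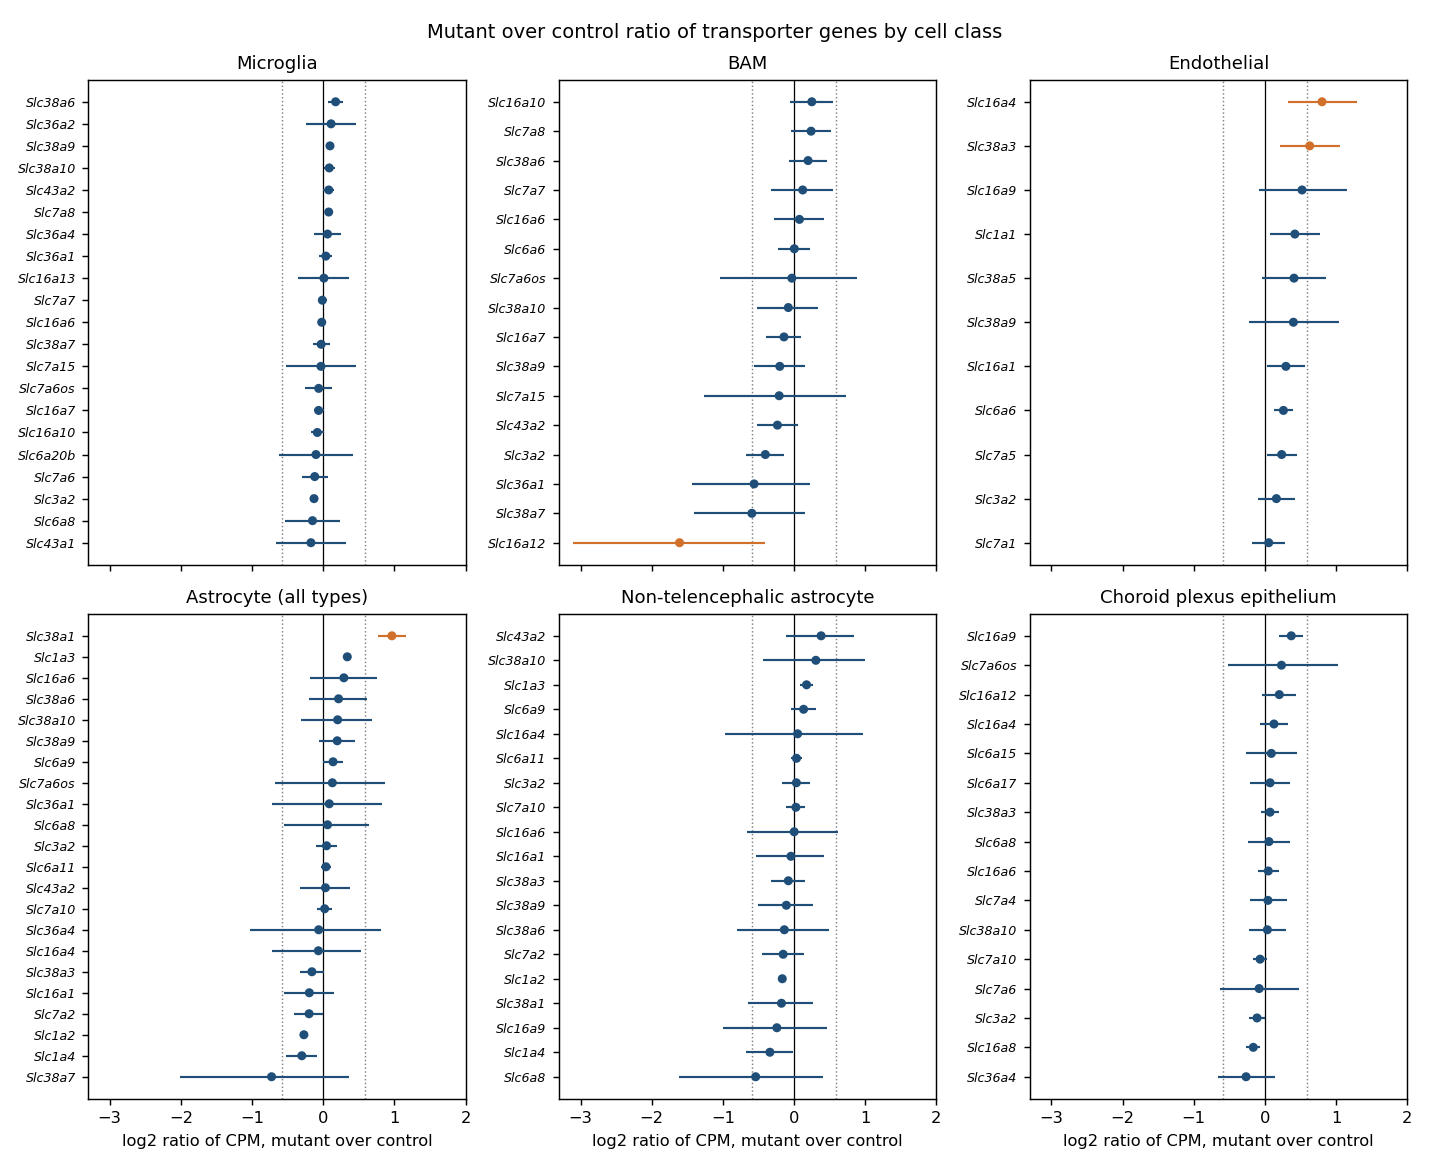
log2 ratio of CPM, mutant over control, for transporter genes in the rule in 6 classes, with exact conditional 95% intervals. Points right of the solid line are higher in the mutant, dotted lines mark 1.5-fold, and orange marks genes that met the size and interval rule. All 11 endothelial genes drawn lie right of the line, while the microglial points lie between ratios of 0.89 and 1.13.

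Astrocytes carried the most abundant transporter RNA in these data. Slc1a2 encodes the main glutamate carrier of forebrain astrocytes, and had 9285 CPM in control and 8354 CPM in mutant telencephalic astrocytes. Non-telencephalic astrocytes had 5329 and 4750 CPM, and Bergmann-type cells 3381 and 2391 CPM. Slc1a3, the gene of the second astrocyte glutamate carrier, had the opposite end of that order for Bergmann-type cells, with 8529 and 8257 CPM. Telencephalic astrocytes followed with 3507 and 3654 CPM and non-telencephalic ones with 1337 and 1510 CPM.

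Of 14 genes measured in both telencephalic and non-telencephalic astrocytes, 2 were at least 1.5-fold higher in the telencephalic type in both libraries and 3 lower. Over all 3887 genes measured, 12.2% were higher and 9.18% lower. The higher ones were Slc1a3, with ratios of 2.62 in control and 2.42 in mutant, and Slc1a2, with 1.74 and 1.76. Slc6a9, which encodes the glycine carrier GlyT1, was lower, with 88.3 against 408 CPM in control and 95.9 against 447 CPM in mutant (ratios 0.216 and 0.214). Slc6a11, the gene of the GABA carrier GAT3, was lower too, with 686 against 1894 CPM and 968 against 1939 CPM (0.362 and 0.499). Slc38a1, a glutamine carrier gene known mainly from neurons, had 12.6 against 74.3 CPM and 33.0 against 65.8 CPM (0.170 and 0.501).

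The other astrocyte carriers differed less between the 2 types. Slc7a10, which encodes a carrier of small neutral amino acids such as serine and glycine, had ratios of 0.688 and 0.713, short of 1.5-fold. Slc38a3 had 262 and 254 CPM in the control types and 327 and 240 CPM in the mutant types. Slc1a4, Slc3a2, Slc7a2, Slc16a1 and Slc38a9 also stayed short of 1.5-fold in at least 1 library. Slc7a10 was not confined to astrocytes, with 116 and 111 CPM in choroid plexus epithelium.

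Bergmann-type cells had a pattern of their own in the description, though 26 and 23 cells allow no count. Slc38a1 reached 1209 CPM in control (1081 to 1348) and 1318 CPM in mutant cells (1159 to 1492), above the 718 and 747 CPM of ependymal cells and far above the other astrocyte types. Slc6a11 was at 108 and 21.3 CPM there, below both other types in both libraries.

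**Figure D4:**
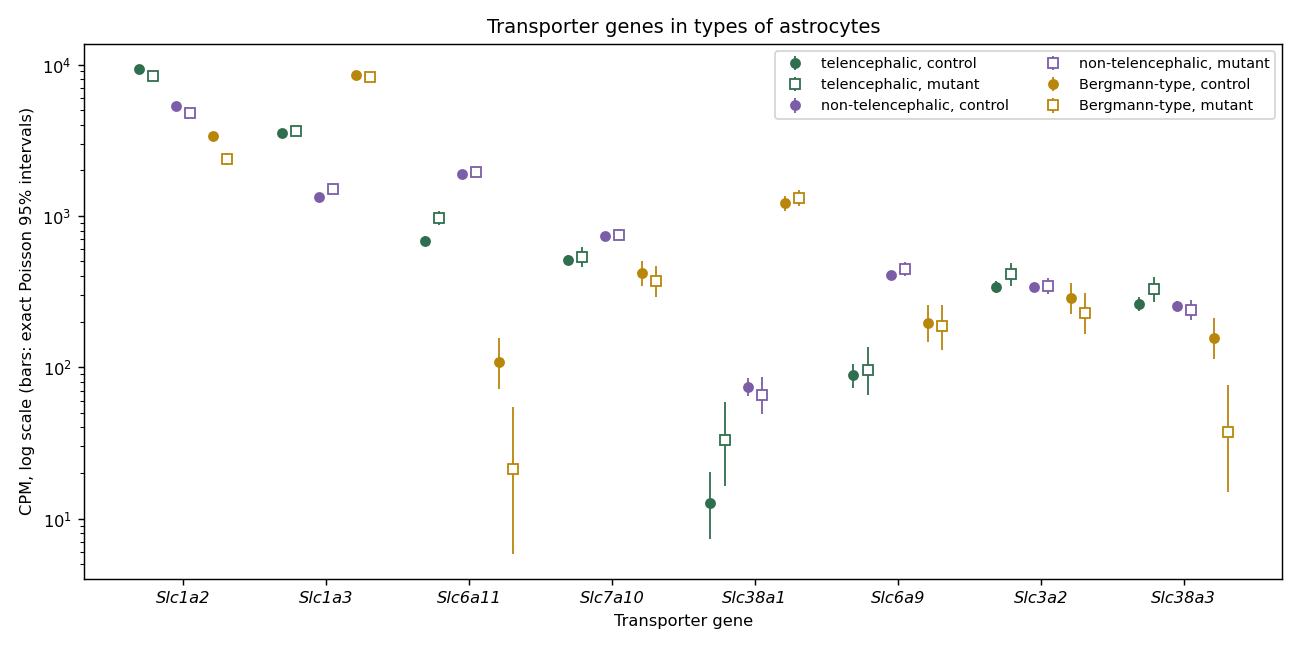
CPM (log scale) of 8 transporter genes in 3 types of astrocytes, with exact Poisson 95% intervals. Color is the type, filled circles are control and open squares mutant. Slc1a3 and Slc38a1 are highest in Bergmann-type cells, Slc1a2 in telencephalic cells, and Slc6a11 and Slc6a9 in non-telencephalic cells in both libraries.

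Between genotypes, 1 of 23 astrocyte genes in the rule was higher in the mutant and 0 lower, where 2.28% and 1.88% of all 9424 astrocyte genes were. This was Slc38a1 (chromosome 15, 96571418 to 96642913), with 105 CPM in control and 205 CPM in mutant astrocytes (ratio 1.95, 1.70 to 2.23). The Bergmann-type share was 26 of 589 astrocytes in control and 23 of 209 in mutant. Without them Slc38a1 had 52.3 CPM in control and 62.6 CPM in mutant (ratio 1.2, 0.94 to 1.52), and within Bergmann-type cells the levels were those given above. Slc1a2 had 6484 CPM in control and 5371 CPM in mutant astrocytes (0.828), and Slc1a3 2247 and 2840 CPM (1.26), neither of which reached 1.5-fold.

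Within non-telencephalic astrocytes alone 0 of 20 genes were higher and 0 lower, against 1.91% and 2.59% of all 7645 genes. The ratios lay between 0.69 and 1.30. Slc6a11 had 1894 CPM in control and 1939 CPM in mutant (1.02, 0.97 to 1.09). Slc7a8 was the only gene higher in mutant astrocytes among those counted apart, with 5.77 and 22.9 CPM, and 1 mutant cell held 42.1% of its UMIs. It is a microglial gene here, and microglial markers summed to 559 CPM in control and 826 CPM in mutant astrocytes.

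Microglia expressed another branch of the family. Slc7a8, which encodes LAT2, a partner of the Slc3a2 glycoprotein, led with 328 CPM in control (322 to 335) and 346 CPM in mutant microglia (340 to 353). Slc16a6, an MCT family gene, had 251 and 247 CPM. Slc3a2 had 226 and 207 CPM, and Slc7a7, which encodes another partner of that glycoprotein that carries cationic amino acids, had 143 and 142 CPM. Slc38a9, the lysosomal arginine sensor gene, had 142 and 152 CPM, and Slc36a1, which encodes a lysosomal exporter of small amino acids, had 60.9 and 62.4 CPM. Slc38a2 had 154.6 and 164.5 CPM, under 10% of its fibroblast level, so it was counted apart.

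Slc1a3 was also present in microglia, at 238 CPM in control and 236 CPM in mutant. This is under 10% of its Bergmann-type level, so it was counted apart. It stayed at that level in both libraries while Slc1a2 went from 81.3 to 22.0 CPM, Slc6a11 from 22.7 to 2.88 CPM and the astrocyte marker sum from 196 to 88.7 CPM. BAMs of the same libraries had 19.6 and 11.6 CPM of Slc1a3.

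BAMs and microglia, both macrophages of the brain, differed in many of these genes. Of 22 genes in the rule for this contrast, 6 were at least 1.5-fold higher in BAMs in both libraries and 6 lower. Over all 10049 genes measured, 10.2% were higher and 12.3% lower. A gene needed at least 50 UMIs over both classes in each library. Microglia had 32385477 UMIs in control and 32668052 in mutant, against 2910508 and 859147 in BAMs. Genes high only in BAMs thus reached the minimum less easily, and these counts depend in part on it. Slc16a12, with 21.3 CPM in control BAMs and 0.154 CPM in control microglia, was under the minimum in the mutant and is not counted. Among the 22 genes the highest ratio was that of Slc7a15. It had 16.2 CPM in control BAMs and 2.22 CPM in control microglia (7.26, 4.92 to 10.6) and 14.0 and 2.17 CPM in mutant (6.43). Slc38a6 had 160 and 43.5 CPM in control and 184 and 49 CPM in mutant (3.69 and 3.75).

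Monocarboxylate family genes lay on both sides. Slc16a7, which encodes MCT2, a lactate and pyruvate carrier of high affinity, had 230 CPM in control BAMs and 105 CPM in control microglia, and 208 and 101 CPM in the mutant. Slc16a10, which encodes a carrier of aromatic amino acids and thyroid hormone, had 117 and 61.7 CPM, and 140 and 58.3 CPM in the mutant. Slc43a2, which encodes the neutral amino acid carrier LAT4, and Slc6a6 were the other higher genes, with ratios of 2.23 and 1.63 in control and 1.79 and 1.53 in mutant. Slc16a6 was lower in BAMs, with 97.2 against 251 CPM and 102 against 247 CPM.

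Slc7a8, Slc7a7 and Slc7a6, all of which encode partners of the Slc3a2 product, were lower in BAMs as well. Slc7a8 had 145 against 328 CPM in control and 171 against 346 CPM in mutant (ratios 0.442 and 0.494). Slc7a7 had 65.3 against 143 CPM and 71.0 against 142 CPM. Slc7a6, which encodes a close relative of the Slc7a7 product, had 1 UMI in the BAMs of each library against 516 and 479 UMIs in microglia (ratio 0.0216, 0.000545 to 0.121, in control). Slc36a1 and Slc36a2 completed the lower set. Slc36a1 had ratios of 0.452 in control and 0.298 in mutant. Slc36a2 had 1 UMI in control BAMs and 0 in mutant ones, against 136 and 148 UMIs in microglia. Its ratios were 0.0818 (0.00206 to 0.464) in control and 0 (0 to 0.960) in mutant. Slc3a2 itself was close to level in control, at 214 against 226 CPM, and 162 against 207 CPM in mutant. Of 18 genes counted apart in this contrast, 5 were also lower in BAMs in both libraries, namely Slc1a3, Slc1a4, Slc7a1, Slc7a5 and Slc38a1. The shares of all genes for this contrast leave such genes out. Slc7a5 had 1.03 CPM in control BAMs and 26.5 CPM in control microglia.

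**Figure D5:**
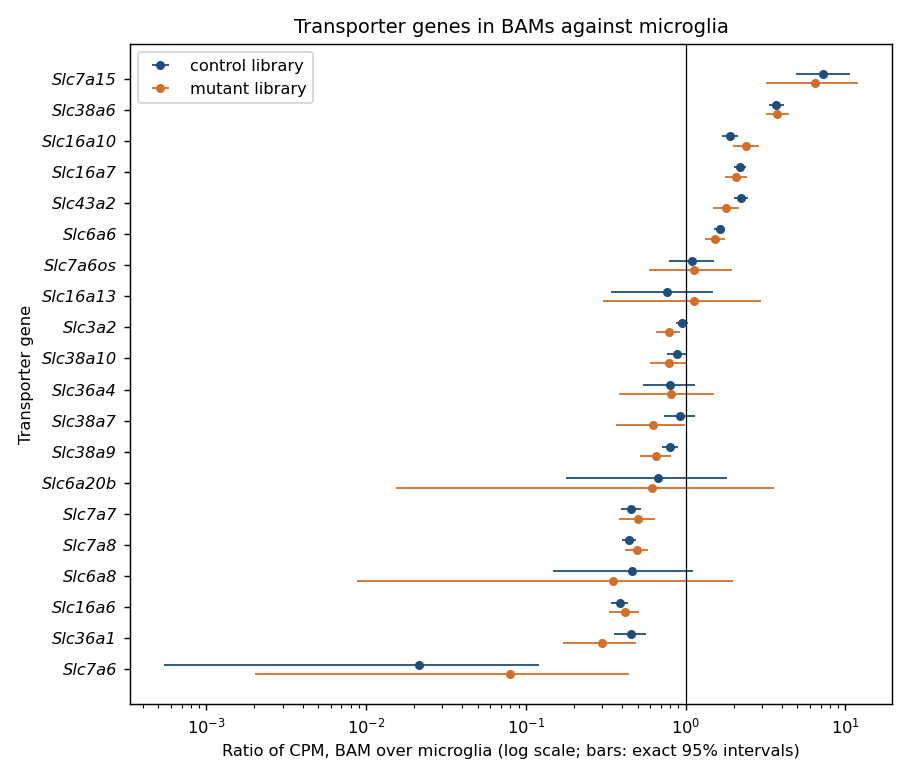
Ratio of CPM, BAM over microglia, on a log scale for the 20 transporter genes of this contrast that had a UMI in the BAMs of both libraries, with exact conditional 95% intervals. Blue is the control and orange the mutant library. Slc7a15 and Slc38a6 lie farthest right, Slc7a6 farthest left, and both libraries lie on the same side of 1 for the 11 drawn genes beyond 1.5-fold in both.

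Between genotypes, microglial transporter levels were close to equal. Of 21 genes in the rule 0 were higher and 0 lower in the mutant, against 0.934% and 1.37% of all 10061 microglial genes, and the ratios lay between 0.89 for Slc43a1 and 1.13 for Slc38a6. The median log2 ratio was -0.02, and so was the median over all genes. Of the 21 genes counted apart, 8 were lower, among them Slc1a2 and Slc6a11 as given above, and 0 were higher. The shares of all genes leave out genes counted apart, so no share stands beside this count. Leiden clusters, made without the transporter genes, split microglia into 8 groups, of which cluster 4 held 809 control and 284 mutant cells and cluster 6 held 59 and 600. For the 12 genes of the rule with at least 1000 microglial UMIs, the highest cluster was 1.11 to 2.15 times the lowest, with a median of 1.76, and for 10 of the 12 the highest was cluster 10, whose cells had medians of 2601 and 2647 UMIs in the 2 libraries.

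In BAMs 0 of 16 genes were higher and 1 was lower in the mutant, against 3.36% and 3.04% of all 7325 genes. This was Slc16a12 (chromosome 19, 34668403 to 34747289), which encodes a creatine carrier of the MCT family. It had 21.3 CPM (62 UMIs in 254 cells) in control and 6.98 CPM (6 UMIs in 98 cells) in mutant BAMs, a ratio of 0.328 (0.116 to 0.755), and 1 mutant cell held 33.3% of its mutant UMIs. Its highest ranked class was fibroblasts, at 55.2 and 30.5 CPM, and the 18 cells with pericyte markers, too few to rank, had 260.3 CPM over both libraries. In BAMs, fibroblast markers summed to 76.6 CPM in control and 52.4 CPM in mutant, and pericyte markers to 5.50 and 5.82 CPM; their part in the difference was not tested. With equal weight per cell 4 genes were lower in mutant BAMs, and with at least 1000 genes and at most 5% mitochondrial UMIs per cell Slc16a12 no longer met the rule (0.309). Among the genes counted as higher in BAMs than in microglia, Slc16a7, Slc16a10, Slc38a6 and Slc43a2 had ratios of 0.91, 1.19, 1.15 and 0.85. Their intervals included 1. Slc6a6 had 250.8 CPM in control and 251.4 CPM in mutant BAMs, and Slc7a15 had 16.2 and 14.0 CPM. Slc16a12, not counted in that contrast, had 0.154 CPM in control and 0.306 CPM in mutant microglia, and so was also higher in BAMs. Slc3a2 had 214 and 162 CPM (0.756, 0.624 to 0.910), short of the 1.5-fold size.

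Choroid plexus epithelium, which makes cerebrospinal fluid and seals it from blood, had a small set of its own. Slc16a8, the gene of MCT3, a lactate carrier known from epithelia of the eye and choroid plexus, had 127 and 113 CPM and no more than 4.32 CPM in any other ranked class. Slc7a10 and Slc3a2 followed, and Slc38a3 had 73.8 and 77.6 CPM. Slc7a4 and Slc6a17 were also highest here, both below 20 CPM. Of 17 genes in the rule 0 were higher and 0 lower in the mutant, where 1.23% and 0.496% of all 8266 genes were, and the ratios ran from 0.83 to 1.29, the highest being that of Slc16a9 with 37.7 and 48.7 CPM. Among genes counted apart, 1 was higher and 5 were lower, and the shares of all genes leave such genes out.

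Fibroblasts and ependymal cells add levels only. Slc38a2, the gene of a widespread neutral amino acid carrier, had 3172 CPM in control and 3670 CPM in mutant fibroblasts, at least 10 times its level in any other ranked class. Slc16a9, a carnitine carrier gene, had 276 and 280 CPM there, and Slc1a5, a glutamine carrier gene, had 65.8 and 24.9 CPM. Slc6a6 had 389 and 261 CPM, Slc38a1 191 and 261 CPM and Slc1a3 253 and 183 CPM in fibroblasts. Ependymal cells were led by Slc38a1, followed by Slc1a3 with 210 and 257 CPM and Slc1a2 with 171 and 209 CPM. Slc6a19 was highest in ependymal cells, at 9.48 and 12.2 CPM. Of the 4 transporters left out by the rule, Slc6a13 had 459 and 145 CPM and Slc6a20a 253 and 171 CPM in fibroblasts. Slc7a11, the cystine carrier gene and another Slc3a2 partner, had 697 and 397 CPM in fibroblasts and 396 and 324 CPM in telencephalic astrocytes. Slc16a3, the gene of the lactate exporter MCT4, had 27.9 and 30.7 CPM in microglia.

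Few genes that work beside these carriers were called between genotypes. Among 15 genes of MCT chaperones and lactate or ketone use, the sole call was Pdk4 in choroid plexus epithelium, from 5.81 to 9.28 CPM (ratio 1.60), and Oxct1, a ketone-use enzyme gene, had 157 and 214 CPM in BAMs (1.36). Of 13 glutamate, glutamine and GABA enzymes, Aldh5a1, a GABA breakdown gene, was higher in mutant non-telencephalic astrocytes (39.0 and 59.3 CPM, 1.52). Glul, the glutamine synthetase gene, had 314 and 217 CPM in BAMs (0.689), short of the size rule. None of 11 serine and glycine genes, 9 branched chain genes and 9 arginine genes was called in the 6 classes. In each list the ratio farthest from 1 had an interval that included 1: 0.453 (0.158 to 1.06) for Asl, an arginine synthesis gene, in astrocytes, 0.642 (0.388 to 1.02) for Dbt, a branched chain breakdown gene, and 0.664 (0.377 to 1.11) for Gldc, a glycine cleavage gene, both in non-telencephalic astrocytes. Some ratios short of the size rule had intervals that excluded 1. Psat1, a serine synthesis gene, had 1.45 (1.27 to 1.65) in microglia and 0.682 (0.526 to 0.873) in astrocytes. Dbt had 0.697 (0.506 to 0.944) in astrocytes and 1.32 (1.13 to 1.54) in choroid plexus epithelium.

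The remaining lists gave 1 or 2 calls each. Of 12 ATF4 response genes, Atf4 was lower in mutant astrocytes (46.2 and 29.5 CPM, 0.640). Of 16 genes of lysosomal amino acid sensing, Rragc was lower in mutant endothelial cells (71.2 and 38.8 CPM, 0.545) and Flcn higher in non-telencephalic astrocytes (19.9 and 33.5 CPM, 1.69). Of 9 thyroid hormone genes, the receptor gene Thrb was lower in mutant BAMs (43.3 and 17.5 CPM, 0.403, 0.219 to 0.691). Slco1c1, a thyroid hormone carrier gene, had 1867 and 2503 CPM in endothelial cells (1.34). Of 14 other barrier transporters, Slc19a3, a thiamine carrier gene, was higher in mutant endothelial cells (114 and 172 CPM, 1.5), and 1.31 (0.92 to 1.89) in those without a Plvap UMI. These counts stand beside the shares of all genes given for each class.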

How the data were processed

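The deposited files hold UMI counts per gene and cell barcode, raw integers written by Cell Ranger 7.1.0 per the file headers. GRCm38.p6 and mm10 are the builds named in the submitters' processing notes. No source used here states whether introns were counted, how cells were called or whether free RNA was removed. Per the labels, libraries used the 10x Next GEM 3′ v3.1 kit on cells sorted by CD13 or CD140a without O4, CD31, ACSA-2, CD11b and F4/80. CD31 marks endothelial cells, ACSA-2 marks astrocytes, and CD11b and F4/80 mark microglia and other macrophages. Endothelial cells, astrocytes, microglia and BAMs were thus compared here although part of the sort selected against them. The effect of the sort on their levels, and on shares such as those of Plvap and Bergmann-type cells, was not tested. Gene positions come from the GENCODE annotation of GRCm38.

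Cells needed 500 or more genes and no more than 10% mitochondrial UMIs. Scrublet (scanpy 1.11.5), run on each library with a limit of 20% in place of 10%, marked 2.18% of control and 2.84% of mutant cells passing both limits as doublets, which were removed. Each cell was scored for each class by the mean of its marker levels, each capped at the mean of the 20 highest cells. It entered the leading class if at least 50% of that class's markers were detected and the next score was at most 50% of its own; 458 control and 677 mutant cells entered none, and 207 and 205 lay near that limit. Astrocytes with at least 5 UMIs of regional markers were telencephalic at 70% or more of these, non-telencephalic at 30% or less, and Bergmann-type at 8000 CPM or more of summed Bergmann markers. These limits were set after marker counts had been seen. These classes are not the study's own, and values may differ for that reason.

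UMIs were summed per class and library. Intervals of ratios are exact, from the binomial split of both counts at the 95% level (scipy 1.17.1). The scripts were tested on simulated counts. Named are, by rule, the 5 highest members of each class, members beyond 1.5-fold at 20 CPM or more, the largest differences between types, partner and left-out genes, and the leading genes of fixed pathway lists, with others added to show their levels. Some genes that enter the counts are not reported here by name. The members, lists and rules were chosen with earlier results of these data known. Alternatives changed the scaling (trimmed means, edgeR 4.0.16), the weight of cells, the gate, doublets, cell filters, minimum count and size, and used Leiden clusters in place of gates.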

Additional observations from a re-analysis of the deposited data

Results flagged for a closer look

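In classes too small to compare, 2 members with at least 20 UMIs stood above every ranked class. Slc38a11, an Slc38 carrier gene, had 479.6 CPM in cells with pericyte markers (334 to 667), from 16 UMIs in 11 control cells and 19 UMIs in 7 mutant cells. Its level was at most 3.22 CPM in every ranked class of either library. By library it was 292 CPM in control and 1041 CPM in mutant. With no mitochondrial limit, a setting added after the data were seen, 38 cells held 65 of all 167 Slc38a11 UMIs in both matrices, at 631 CPM. Slc16a12, with 19 UMIs in the same 18 pericytes and so under that minimum, had 260.3 CPM (157 to 407), above the 55.2 and 30.5 CPM of fibroblasts. Slc6a8, the creatine carrier gene, had 52.2 CPM in 65 oligodendrocytes, against 26.4 CPM over both libraries in fibroblasts, its highest compared class (ratio 1.98, 1.33 to 2.98). Oligodendrocytes carry O4, which part of the sort selected against, and they were not among the classes compared. That part of the sort also selected against markers of endothelial cells, astrocytes, microglia and BAMs, which were compared.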

How the results depend on the processing

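No paired analysis was possible because there was 1 library per genotype. None of the 4 ratios called between genotypes changed direction under any alternative. Slc16a4 in endothelial cells met the rule under all 9 (1.54 to 1.83). Slc38a3 in endothelial cells (1.22 to 1.62) missed it under equal weight per cell, a 20% mitochondrial limit, Leiden clusters and without Plvap cells. Slc16a12 in BAMs (0.22 to 0.33) missed it with at least 1000 genes and at most 5% mitochondrial UMIs, and Slc38a1 in astrocytes (1.2 to 2.06) without Bergmann-type cells. Of the counts of members, 147 alternative values stayed within 1.5 times the main one and 24 did not. With equal weight per cell, 4 were lower in BAMs in place of 1 and 1 was higher in endothelial cells in place of 2. With at least 1000 genes and at most 5% mitochondrial UMIs, 1 was higher in BAMs, 5 in endothelial cells, 2 in astrocytes, 1 in non-telencephalic astrocytes and 1 in choroid plexus epithelium, and 1 was lower in astrocytes and 2 in non-telencephalic astrocytes. With a 20% mitochondrial limit, 1 was higher in endothelial cells and 1 in choroid plexus epithelium, and 1 was lower in astrocytes. With Leiden clusters, 1 was higher in endothelial cells and 2 in astrocytes. With at least 20 UMIs, 1 was lower in endothelial cells (Slc43a3), and with 2-fold 0 were higher in endothelial cells and 0 in astrocytes. With members below 10% of another class counted in, 8 were lower in microglia, 3 in BAMs, 1 in astrocytes, 1 in non-telencephalic astrocytes and 5 in choroid plexus epithelium, and 2 were higher in astrocytes and 1 in choroid plexus epithelium. Beyond fewer cells, fewer genes or other cells entering, the cause of these moves was not tested. The lean of the endothelial genes (median ratio 1.32) was 1.32 under trimmed-mean scaling, 1.29 under the stricter gate and 1.19 with Leiden clusters. The 98 mutant BAMs, with 859147 UMIs, and the endothelial cells, with 463257 and 540633, limit what could be seen at this depth.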
